A study of Saccharomyces cerevisiae with 10 samples.

Results

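The SNZ and SNO genes of the budding yeast Saccharomyces cerevisiae are 6 genes in 3 adjacent pairs: SNZ1 with SNO1, SNZ2 with SNO2, and SNZ3 with SNO3. They were taken by gene symbol. All 6 were among the 6059 genes of the deposited count table, and all 6 passed the filter on low counts, which left 6015 genes for testing. An SNZ protein is known as the synthase subunit, and an SNO protein as the glutaminase subunit, of an enzyme that makes pyridoxal phosphate, the cofactor form of vitamin B6. The glutaminase frees ammonia from glutamine and hands it to the synthase, which joins it to a pentose phosphate and a triose phosphate. SNZ1 and SNO1 are known in yeast for their rise in stationary phase and on amino acid starvation, and the other pairs for lying beside genes of thiamine synthesis.

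The libraries came from poly(A)-selected RNA of 2 strains: Z100, named in the labels as the adaptive strain and obtained, per the series title, by evolution under modest heat, and XH7, the control strain. The groups were Z100 after 1 h of heat shock at 50 °C (3 libraries), Z100 at 30 °C (3 libraries), XH7 after the same heat shock (2 libraries) and XH7 at 30 °C (2 libraries). The protocol names an ice-water mixture beside the heat shock, so it is not clear at what temperature the cells labelled 30 °C were last held. The sources used here do not give the medium, the growth phase, the alleles that separate the strains or the number of clones behind Z100. No label states that replicates were separate cultures, so the p-values cover the spread among the libraries sequenced, part of which may be technical.

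Totals were 51901045 to 81442848 counts per library. Levels are given as CPM, counts over the library total after TMM scaling, and, wherever genes are set against each other, as the deposited FPKM, which also divides by gene length. A difference is a log2 fold change ± its standard error from edgeR's quasi-likelihood test fitted on the whole table, and called means a Benjamini-Hochberg adjusted p under 0.05. The scale is relative to the average gene. Scaling by library size alone moved the median gene by -0.63 (log2) with heat in Z100 and by -0.55 in XH7, and by -0.22 and -0.13 between the strains at 50 °C and at 30 °C. Upper-quartile scaling moved it by -0.18 and -0.13 with heat in Z100 and in XH7. Fewer cells and less RNA per cell cannot be told apart in such data.

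Each pair lies head to head, with SNO on the minus strand and SNZ on the plus strand, so that both genes of a pair start from 1 shared intergenic stretch. On the R64 genome SNZ1 (YMR096W, 894 bases) lies at chrXIII:458408-459301 and SNO1 (YMR095C, 675 bases) at chrXIII:457285-457959, in the interior of the chromosome arm. SNZ2 (YNL333W, 897 bases) lies at chrXIV:13267-14163 and SNO2 (YNL334C, 669 bases) at chrXIV:12208-12876. SNZ3 (YFL059W, 897 bases) lies at chrVI:11363-12259 and SNO3 (YFL060C, 669 bases) at chrVI:10301-10969. The outer pairs are 10.3 to 13.3 kb from a chromosome end, inside a duplicated block of chromosome VI (positions 3050 to 14039) and chromosome XIV (positions 4963 to 15942) with 96.36% identity. No annotated gene overlaps a member.

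**Figure D1:**
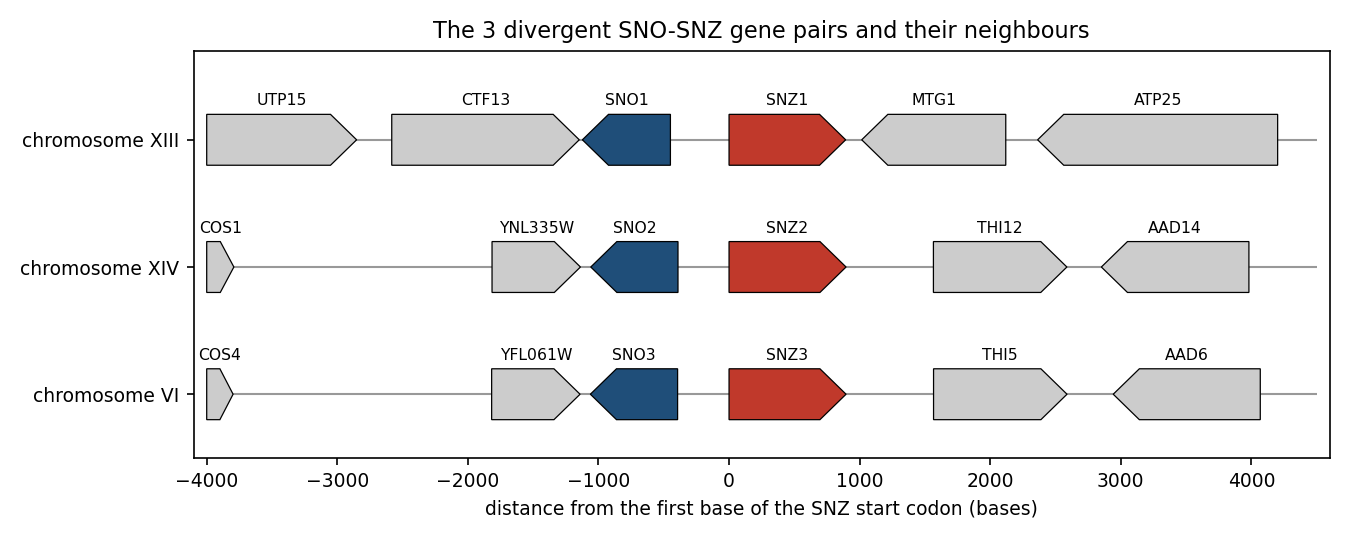
Map of the 3 gene pairs, drawn to scale by distance in bases from the first base of each SNZ start codon, with arrows pointing in the direction of transcription (red SNZ, blue SNO, grey neighbours; genes that run past the plotted range are cut at its edge). The pairs on chromosomes XIV and VI have related neighbours in the same order, and the pair on chromosome XIII has others.

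The intergenic stretches are 448 bases between SNO1 and SNZ1, 390 bases between SNO2 and SNZ2 and 393 bases between SNO3 and SNZ3. Those of SNO2-SNZ2 and SNO3-SNZ3 are 98.47% identical to each other, and 40.12% and 39.68% identical to that of SNO1-SNZ1. Shown here, on the plus strand of R64, are the stretch of SNO1-SNZ1 that holds TGACTC, the core of the site known to be bound by the amino acid regulator Gcn4, with each TGACTC in capitals (chrXIII:458080-458259), and stretches of the others (chrXIV:12957-13136 and chrVI:11050-11232) with the bases that differ between them in capitals.
SNO1-SNZ1: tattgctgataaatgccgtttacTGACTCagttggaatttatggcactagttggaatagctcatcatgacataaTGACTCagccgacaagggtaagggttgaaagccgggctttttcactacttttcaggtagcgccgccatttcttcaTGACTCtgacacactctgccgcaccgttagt
SNO2-SNZ2: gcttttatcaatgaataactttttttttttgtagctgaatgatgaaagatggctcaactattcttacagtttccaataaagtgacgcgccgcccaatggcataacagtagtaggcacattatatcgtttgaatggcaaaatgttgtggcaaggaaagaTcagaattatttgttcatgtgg
SNO3-SNZ3: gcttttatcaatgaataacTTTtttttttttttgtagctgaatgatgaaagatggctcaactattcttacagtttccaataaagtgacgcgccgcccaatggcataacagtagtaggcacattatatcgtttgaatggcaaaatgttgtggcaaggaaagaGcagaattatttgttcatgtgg
Within 300 bases before the start codon, TGACTC on either strand occurred 2 times before SNZ1 (first bases 254 and 179 bases before the start) and 3 times before SNO1 (275, 200 and 149 bases before it). These are the same 3 copies of the intergenic stretch, 2 of which lie within the window of both genes. There was no match before SNZ2, SNZ3, SNO2 or SNO3. Of 6033 promoters of this length, 468 (7.8%) hold TGACTC. No member's window held CCCCT (the stress response element, 22.2% of promoters), GAANNTTC (11.4%) or TTCNNGAA (13.1%), the spaced repeats of heat shock elements, which can share bases with each other. All were searched on both strands, and a match or its lack describes these letters only.

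The copies on chromosomes XIV and VI are so alike that a read can often not be placed. SNZ2 and SNZ3 differ at 6 of 897 coding bases (99.33% identity) and are identical in 53.7% of windows of 150 bases. SNO2 and SNO3 differ at 2 of 669 bases (99.7%) and are identical in 64.6% of such windows. SNZ1 shares 70.65% of aligned bases with SNZ2 and 70.76% with SNZ3, and SNO1 shares 58.97% with each of its relatives. Printed here, in the direction of the gene, are 110 bases that hold 5 of the 6 differences between SNZ2 (chrXIV:13960-14069, plus strand) and SNZ3 (chrVI:12056-12165, plus strand), and 110 bases that hold both differences between SNO2 (chrXIV:12526-12635, minus strand) and SNO3 (chrVI:10619-10728, minus strand), with the differing bases in capitals.
SNZ2: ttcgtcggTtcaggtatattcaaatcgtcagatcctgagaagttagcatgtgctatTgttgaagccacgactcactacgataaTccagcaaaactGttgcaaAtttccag
SNZ3: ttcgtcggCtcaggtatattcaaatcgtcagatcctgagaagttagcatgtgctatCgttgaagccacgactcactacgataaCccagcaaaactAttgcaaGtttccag
SNO2: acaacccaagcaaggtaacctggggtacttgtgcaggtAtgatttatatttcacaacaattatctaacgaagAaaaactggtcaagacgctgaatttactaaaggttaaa
SNO3: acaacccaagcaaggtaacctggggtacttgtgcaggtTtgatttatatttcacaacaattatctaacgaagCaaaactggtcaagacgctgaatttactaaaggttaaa
The sources used here do not give how the authors' counting treated reads that fit both copies, nor whether XH7 and Z100 carry these bases. Values of SNZ2, SNZ3, SNO2 and SNO3 taken singly are therefore less certain, and each result is also given for the summed counts of SNZ2 plus SNZ3 and of SNO2 plus SNO3.

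SNZ1 was the most abundant member by mean in each group. Per length, SNZ1 stood at 64.8 ± 39.5 FPKM in Z100 at 30 °C, where SNZ2, SNO1, SNZ3, SNO3 and SNO2 stood at 13.9 ± 1.19, 11.4 ± 7.02, 10.8 ± 0.4995, 5.003 ± 1.10 and 4.37 ± 0.958 FPKM (SD, n = 3). In XH7 at 30 °C SNZ1 stood at 34.3 ± 2.01 FPKM, and the others between 11.4 ± 1.25 FPKM (SNO3) and 7.81 ± 1.66 FPKM (SNO2; SD, n = 2). Of the summed FPKM of the SNZ genes, SNZ1 made up 62.9 ± 7.58% at 50 °C and 68.5 ± 14.1% at 30 °C in Z100, and 57.1 ± 4.39% at 50 °C and 63.6 ± 1.07% at 30 °C in XH7. SNO1 made up 53.8 ± 17.2% of the summed SNO FPKM at 50 °C and 51.4 ± 13.2% at 30 °C in Z100, and 37.2 ± 17.1% at 50 °C and 34.6 ± 0.308% at 30 °C in XH7.

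SNZ1 had 6.64, 5.81 and 4.18 CPM in Z100 at 50 °C, 75.3, 23.6 and 43.2 CPM in Z100 at 30 °C, 13.1 and 8.09 CPM in XH7 at 50 °C, and 25.9 and 21.4 CPM in XH7 at 30 °C (replicates in order). Its group means ran from high to low as Z100 at 30 °C, XH7 at 30 °C, XH7 at 50 °C and Z100 at 50 °C. Only the first pair of neighbours in this order overlapped, since replicate 2 of Z100 at 30 °C lay between the XH7 libraries. SNO1 kept the same order with more overlap. It had 2.58, 1.98 and 1.28 CPM in Z100 at 50 °C, 9.80, 2.73 and 6.37 CPM in Z100 at 30 °C, 4.71 and 1.71 CPM in XH7 at 50 °C, and 4.91 and 5.59 CPM in XH7 at 30 °C. Both strains overlapped at each temperature.

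SNZ2 had 2.20, 1.79 and 1.67 CPM in Z100 at 50 °C, 10.5, 12.0 and 9.14 CPM in Z100 at 30 °C, 4.53 and 3.15 CPM in XH7 at 50 °C, and 7.54 and 6.83 CPM in XH7 at 30 °C. SNZ3 had 0.971, 1.11 and 1.88 CPM in Z100 at 50 °C, 8.03, 9.05 and 7.55 CPM in Z100 at 30 °C, 4.13 and 3.77 CPM in XH7 at 50 °C, and 6.86 and 5.91 CPM in XH7 at 30 °C. For both genes the order was that of SNZ1, and no group overlapped its neighbour.

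SNO2 and SNO3 ran in another order, with XH7 at 30 °C on top. SNO2 had 0.131, 1.10 and 0.683 CPM in Z100 at 50 °C, 2.79, 2.10 and 2.43 CPM in Z100 at 30 °C, 1.87 and 2.19 CPM in XH7 at 50 °C, and 3.595 and 4.38 CPM in XH7 at 30 °C. SNO3 had 0.859, 0.781 and 1.38 CPM in Z100 at 50 °C, 3.30, 2.62 and 2.48 CPM in Z100 at 30 °C, 2.92 and 2.86 CPM in XH7 at 50 °C, and 5.70 and 5.99 CPM in XH7 at 30 °C. Z100 at 30 °C overlapped XH7 at 50 °C for both genes, and Z100 at 50 °C was lowest. The lowest value, that of SNO2 in replicate 1 of Z100 at 50 °C, rested on 7 counts, against 73 and 40 in its replicates.

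**Figure D2:**
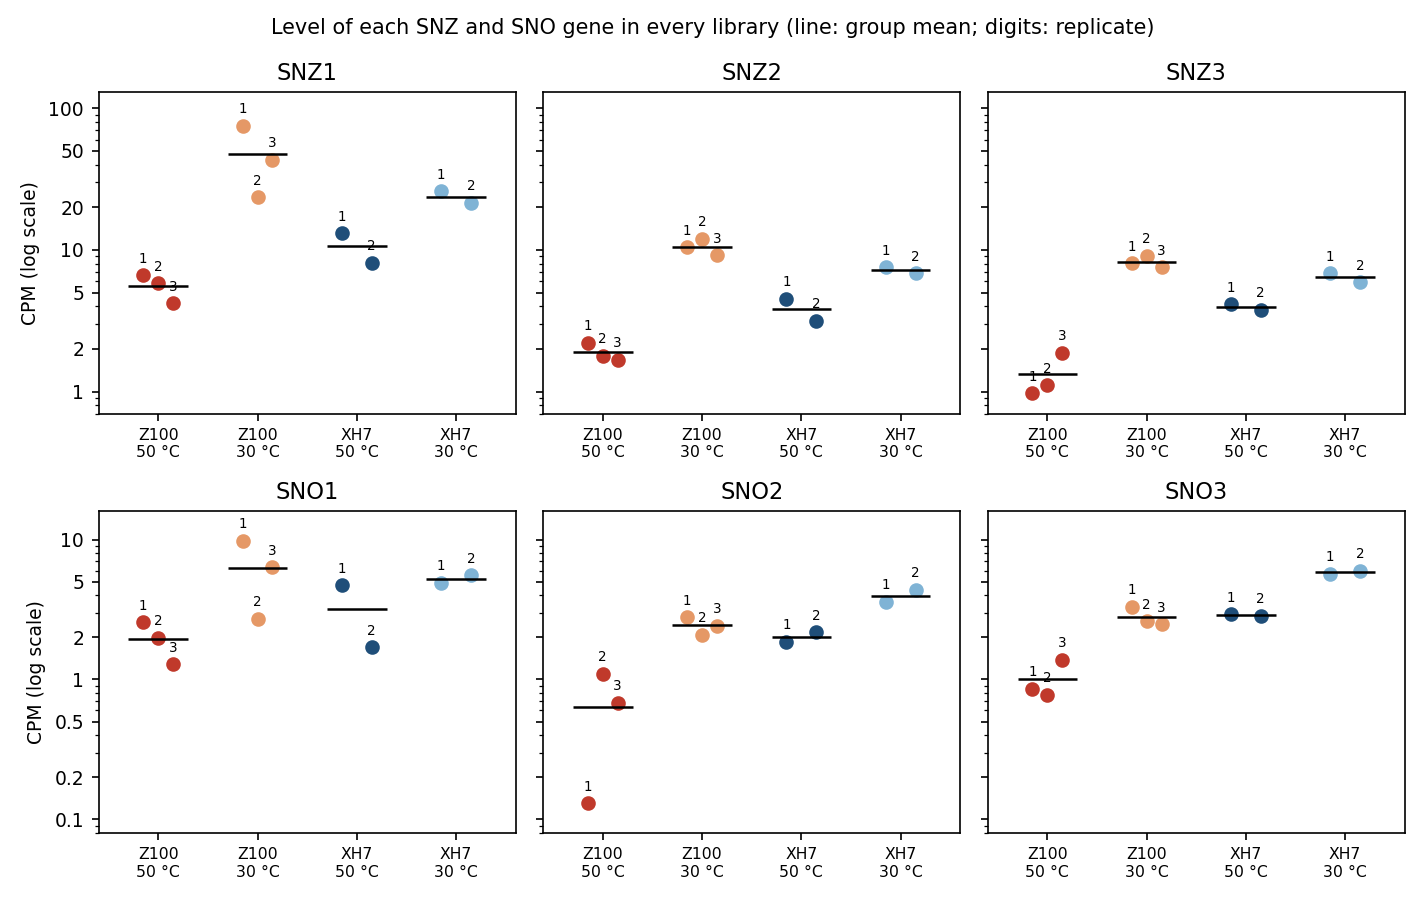
CPM (log scale) of each SNZ and SNO gene in every library by group, with the replicate number above each point and a line at the group mean. The SNZ genes are highest in Z100 at 30 °C and lowest in Z100 at 50 °C. SNO2 and SNO3 are highest in XH7 at 30 °C.

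Heat in Z100 asked how these genes respond to the shock in the evolved strain. All 6 fell, and for each no 50 °C library reached a 30 °C library. The share of all genes with such a separation is not given here. In this comparison 36.2% of all genes tested were called lower, 33.8% higher and 69.9% in either direction, so that a fall by itself was common. SNZ1 averaged 5.55 ± 1.25 CPM at 50 °C and 47.4 ± 26.1 CPM at 30 °C (SD, n = 3 each), a log2 fold change of -3.09 ± 0.41 (edgeR adjusted p = 6.5e-05). SNZ2 was at -2.48 ± 0.23 and SNZ3 at -2.63 ± 0.28, with edgeR adjusted p of 7.4e-06 and 1.6e-05, and their sum at -2.55 ± 0.19 (adjusted p = 1.5e-06), a level 5.84-fold lower at 50 °C. The glutaminase genes had values nearer 0: SNO1 was at -1.70 ± 0.51 (adjusted p = 0.013), SNO2 at -1.92 ± 0.54 (adjusted p = 0.009), SNO3 at -1.48 ± 0.28 (adjusted p = 0.00092) and SNO2 plus SNO3 at -1.67 ± 0.28 (adjusted p = 0.0004, edgeR). Every call held when any 1 library was left out, except that of SNO1 without replicate 1 of Z100 at 30 °C (-1.23, edgeR adjusted p = 0.061). The median log2 fold change was -2.2 over the 6 genes and -0.05 over all genes.

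Heat in XH7 put the same question to the control strain. Called lower were SNZ1 (-1.16 ± 0.46, adjusted p = 0.049), SNZ2 (-0.90 ± 0.27, adjusted p = 0.015) and SNO3 (-1.01 ± 0.33, adjusted p = 0.022, edgeR), 3 of 6, where 32.0% of all genes were called lower, 31.3% higher and 63.3% in either direction. SNZ3 (-0.69 ± 0.32), SNO1 (-0.71 ± 0.61) and SNO2 (-0.98 ± 0.62) had edgeR adjusted p of 0.083, 0.32 and 0.2. SNZ3 was called with upper-quartile scaling, with library size alone, with limma and without replicate 3 of Z100 at 50 °C (edgeR adjusted p = 0.036 for the last). SNO2 was called without replicate 1 of Z100 at 50 °C (edgeR adjusted p = 0.028), on the XH7 libraries alone and with limma on log2(FPKM + 1). Libraries of the 2 temperatures did not overlap for any member. For 2 libraries in each group the smallest two-sided exact permutation p is 0.333, so a lack of overlap is no call. The share of all genes without overlap is not given here. With the copies summed, SNZ2 plus SNZ3 fell (-0.80 ± 0.22, adjusted p = 0.0087), at 7.79 ± 1.24 CPM at 50 °C and 13.6 ± 1.18 CPM at 30 °C (SD, n = 2 each). SNO2 plus SNO3 fell too (-1.0 ± 0.34, edgeR adjusted p = 0.024), at 4.92 ± 0.184 CPM at 50 °C and 9.83 ± 0.761 CPM at 30 °C. The median was -0.94 over the 6 genes and 0.01 over all genes.

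These calls rest on few libraries. That of SNZ1 was lost without any 1 of 7 libraries (replicate 3 of Z100 at 30 °C, each Z100 library at 50 °C, either XH7 library at 30 °C or replicate 2 of XH7 at 50 °C; edgeR adjusted p up to 0.25), and with RLE scaling, a filter of 5 CPM or limma-voom (adjusted p up to 0.056). Those of SNZ2 and of SNZ2 plus SNZ3 were lost without replicate 1 of XH7 at 30 °C or replicate 2 at 50 °C (adjusted p up to 0.12 and 0.077), and those of SNO3 and of SNO2 plus SNO3 without any 1 of the XH7 libraries (adjusted p up to 0.093 and 0.11, edgeR).

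The difference of the heat responses asked whether the fall differed between the strains. It did for the synthase copies on chromosomes XIV and VI: the log2 fold change with heat was lower in Z100 than in XH7 by -1.57 ± 0.35 for SNZ2 (edgeR adjusted p = 0.037) and by -1.94 ± 0.42 for SNZ3 (adjusted p = 0.034). These were 2 of 6 members, where 2.64% of all genes were called lower, 1.63% higher and 4.27% in either direction. The summed counts gave -1.75 ± 0.28 (adjusted p = 0.013). SNZ1 had a difference as large, -1.93 ± 0.60, that did not pass (edgeR adjusted p = 0.092), and its libraries varied more. DESeq2 called this SNZ1 difference (adjusted p = 0.019). The SNO genes had -0.98 ± 0.78 (SNO1), -0.94 ± 0.81 (SNO2), -0.46 ± 0.43 (SNO3) and -0.67 ± 0.43 (SNO2 plus SNO3), with edgeR adjusted p of 0.46, 0.5, 0.54 and 0.36.

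The single-copy calls of this difference were lost without any 1 of 8 libraries for SNZ2 (adjusted p up to 0.23) and of 7 for SNZ3 (up to 0.21). For SNZ2 these were all libraries but replicate 1 of Z100 and replicate 2 of XH7 at 50 °C, and for SNZ3 all but these and replicate 3 of Z100 at 50 °C. The summed call was lost without replicate 1 or replicate 2 of XH7 at 30 °C (edgeR adjusted p up to 0.13). SNZ1 was called without replicate 2 of Z100 at 30 °C (adjusted p = 0.045) or replicate 2 of XH7 at 50 °C (adjusted p = 0.038, edgeR).

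**Figure D3:**
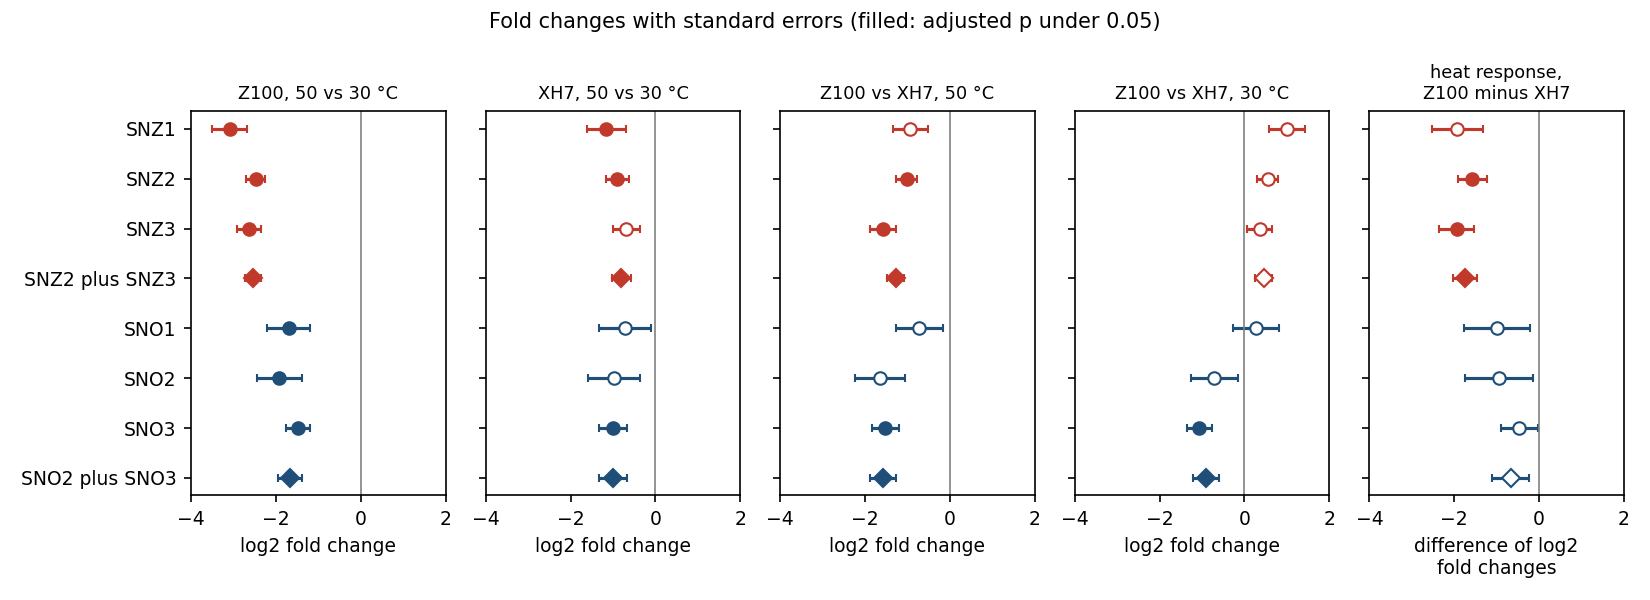
Log2 fold changes with standard errors (bars) of each member (circles) and of the summed copies (diamonds) in the 5 comparisons, filled where the edgeR adjusted p is under 0.05. In Z100 with heat all points are filled and lie left of 0; between strains at 30 °C the SNZ points lie right of 0 (SNZ1 at 1.00) and those of SNO2 and SNO3 left of it.

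Between the strains at 50 °C, the question was how Z100 differs under heat shock. Z100 had less RNA of both outer pairs. SNZ3 (-1.58 ± 0.30, adjusted p = 0.015), SNO3 (-1.52 ± 0.31, adjusted p = 0.02) and SNZ2 (-1.02 ± 0.25, adjusted p = 0.036, edgeR) were called lower, 3 of 6 members, where 4.94% of all genes were called lower, 4.02% higher and 8.96% in either direction. SNZ2 plus SNZ3 averaged 3.21 ± 0.329 CPM in Z100 (n = 3) and 7.79 ± 1.24 CPM in XH7 (n = 2), a log2 fold change of -1.28 ± 0.20 (edgeR adjusted p = 0.0076). SNO2 plus SNO3 averaged 1.64 ± 0.575 CPM in Z100 and 4.92 ± 0.184 CPM in XH7 (-1.58 ± 0.31, adjusted p = 0.017). Both summed calls held when any 1 library was left out, with edgeR adjusted p up to 0.032 and 0.043. SNO2 (-1.65 ± 0.58), SNZ1 (-0.93 ± 0.42) and SNO1 (-0.72 ± 0.55) had adjusted p of 0.10, 0.19 and 0.44 (edgeR), with no overlap between strains for SNO2 and SNZ1. For 3 against 2 libraries the smallest two-sided exact permutation p is 0.1, so this lack of overlap is no call. The share of all genes without overlap at 50 °C is not given here. SNO2 was called without replicate 2 of Z100 at 50 °C (edgeR adjusted p = 0.044) and by DESeq2 (adjusted p = 0.041).

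Of the single-copy calls at 50 °C, that of SNZ3 held when any 1 library was left out. That of SNO3 was lost without either XH7 library at 30 °C or replicate 1 of XH7 at 50 °C (adjusted p up to 0.053). That of SNZ2 was lost without any 1 of 7 libraries (replicates 1 and 3 of Z100 at 30 °C, replicates 2 and 3 of Z100 at 50 °C, both of XH7 at 30 °C, replicate 1 of XH7 at 50 °C; edgeR adjusted p up to 0.13). Fitted on the 5 libraries at 50 °C alone, no member and neither sum was called (adjusted p of 0.15 for SNZ2 plus SNZ3 and 0.17 for SNO2 plus SNO3).

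Between the strains at 30 °C, SNO3 was the only member called: it averaged 2.80 ± 0.441 CPM in Z100 and 5.84 ± 0.208 CPM in XH7 (-1.06 ± 0.30, edgeR adjusted p = 0.026), where 14.1% of all genes were called lower, 14.3% higher and 28.4% in either direction. SNO2 was at -0.71 ± 0.56 (adjusted p = 0.36), and SNO2 plus SNO3 at -0.91 ± 0.30 (adjusted p = 0.047). The synthase genes had values on the other side of 0: SNZ1 1.00 ± 0.43, SNZ2 0.55 ± 0.25, SNZ3 0.36 ± 0.29 and SNZ2 plus SNZ3 0.46 ± 0.20, with edgeR adjusted p of 0.10, 0.12, 0.37 and 0.10. SNO1 was at 0.27 ± 0.55 (adjusted p = 0.73). The SNO3 call was lost without replicate 2 or 3 of Z100 or either replicate of XH7 at 30 °C (adjusted p up to 0.17). The call of SNO2 plus SNO3 was lost without any 1 of 7 libraries (each library at 30 °C and replicate 2 of either strain at 50 °C; edgeR adjusted p up to 0.25), and with RLE scaling, upper-quartile scaling or library size alone (0.054, 0.055 and 0.075). SNZ1 was called higher without replicate 2 of Z100 at 30 °C (adjusted p = 0.035), and SNZ2 plus SNZ3 without replicate 2 of XH7 at 50 °C (edgeR adjusted p = 0.047).

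The balance of glutaminase to synthase RNA within a library needs no scaling between libraries, and was set after the values above were seen. SNO2 plus SNO3 had 0.312, 0.648 and 0.582 counts per count of SNZ2 plus SNZ3 in Z100 at 50 °C, and 0.329, 0.224 and 0.294 in Z100 at 30 °C. XH7 had 0.552 and 0.730 at 50 °C, and 0.645 and 0.814 at 30 °C. At 30 °C the strains did not overlap: the mean ratio was 0.283 ± 0.0534 in Z100 (n = 3) and 0.730 ± 0.119 in XH7 (n = 2), a difference of -1.38 on the log2 scale. The two-sided exact permutation test gave p = 0.1, the smallest that 10 arrangements allow, and 0.533 after Benjamini-Hochberg adjustment over 16 tests of this kind, so the design cannot call it.

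SNO1 had 0.388, 0.341 and 0.306 counts per count of SNZ1 in Z100 at 50 °C, and 0.130, 0.116 and 0.147 in Z100 at 30 °C. XH7 had 0.361 and 0.211 at 50 °C, and 0.190 and 0.261 at 30 °C. The ratio in Z100 was higher in each library at 50 °C than in each at 30 °C (0.345 ± 0.0409 and 0.131 ± 0.0158, SD, n = 3 each). The exact permutation test gave p = 0.1 (adjusted 0.533), again the smallest possible. At 30 °C each Z100 library lay below each XH7 library (0.131 ± 0.0158 and 0.225 ± 0.0501; exact permutation p = 0.1, adjusted 0.533). In XH7 the temperatures overlapped (exact permutation p = 0.667). The ratio SNZ3 to SNZ2 was 0.783 ± 0.0369 in Z100 and 0.888 ± 0.0322 in XH7 at 30 °C (exact permutation p = 0.2, adjusted 0.592).

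**Figure D4:**
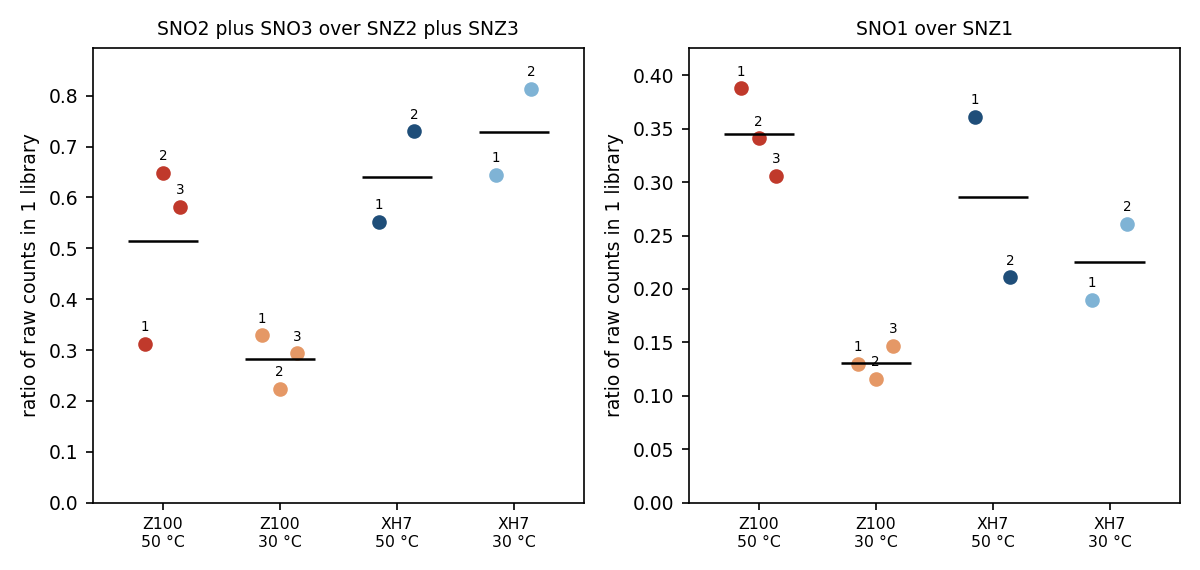
Ratio of glutaminase to synthase counts within each library, by group, from 0, with the replicate number above each point and a line at the group mean. Left, SNO2 plus SNO3 over SNZ2 plus SNZ3; right, SNO1 over SNZ1. Z100 at 30 °C is the lowest group by mean in both panels.

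The inner pair varied together among libraries of 1 group. In Z100 at 30 °C the SD of log2 CPM was 0.84 for SNZ1 and 0.93 for SNO1, where the median gene had 0.174 and 98.2% and 98.6% of genes varied as much or less. Both were highest in replicate 1 and lowest in replicate 2. SNZ2 and SNZ3 had an SD of 0.19 and 0.13 in the same libraries, with replicate 2 highest. The 39 amino acid genes listed as Gcn4 targets had median deviations from the group mean of 0.17, -0.20 and 0.02 (log2) in replicates 1, 2 and 3. The other vitamin B6 genes ran in the same order (0.11, -0.17 and 0.07), as did genes listed for their rise in stationary phase (0.12, -0.19 and -0.02). The thiamine genes did not (-0.04, 0.06 and -0.02). In Z100 at 50 °C the Gcn4 targets had -0.07, 0.15 and -0.09, where SNZ1 had 0.29, 0.09 and -0.38 and SNO1 0.46, 0.08 and -0.54. In XH7 at 50 °C the Gcn4 targets had -0.10 and 0.10, where SNZ1 had 0.34 and -0.34 and SNO1 0.72 and -0.72. In XH7 at 30 °C the targets had 0.15 and -0.15, where SNZ1 had 0.14 and -0.14 and SNO1 -0.09 and 0.09. The part of such differences between libraries in the results for SNZ1 and SNO1 was not tested. In Z100 at 50 °C SNO2 had an SD of 1.48, which 99.3% of genes did not exceed.

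Other genes of vitamin B6 metabolism were called in both directions with heat. Of 6 listed, 3 were called lower and 1 higher in Z100, where 36.2% and 33.8% of all genes were, and 4 lower and 2 higher in XH7, where 32.0% and 31.3% of all genes were (2 lower without replicate 1 of XH7 at 30 °C, 1 higher without replicate 2). BUD16, a putative pyridoxal kinase, fell to 5.85 ± 2.44 CPM in Z100 at 50 °C, against 61.8 ± 9.06 CPM at 30 °C (-3.40 ± 0.32, edgeR adjusted p = 7.4e-06), and fell in XH7 (-3.42 ± 0.39, adjusted p = 4.3e-05). BUD17, its relative, was at -1.31 ± 0.24 in Z100 (adjusted p = 0.00067) and -0.96 ± 0.29 in XH7 (adjusted p = 0.015), the last lost without replicate 1 of XH7 at 30 °C or replicate 2 at 50 °C (edgeR adjusted p up to 0.10). TPN1, the plasma membrane importer of vitamin B6, was at -1.92 ± 0.15 in Z100 and -1.23 ± 0.18 in XH7 (edgeR adjusted p = 2.4e-06 and 0.00023). YPR127W, which the file describes as pyridoxine 4-dehydrogenase, rose to 163.1 ± 83.9 CPM in Z100 at 50 °C, against 19.4 ± 1.77 CPM at 30 °C (3.07 ± 0.36, adjusted p = 3e-05), and rose in XH7 (3.29 ± 0.45, edgeR adjusted p = 0.00012).

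At 30 °C, 3 of the 6 were called higher in Z100 and none lower, where 14.3% and 14.1% of all genes were. The importer gene TPN1 had 249.2, 223.9 and 243.2 CPM in Z100 and 110 and 96.2 CPM in XH7 (1.21 ± 0.17, edgeR adjusted p = 0.0015), a call that held when any 1 library was left out. PDX3, the oxidase that makes pyridoxal phosphate from salvaged vitamers, was at 0.77 ± 0.21 (adjusted p = 0.022) and YPR127W at 1.32 ± 0.39 (adjusted p = 0.032, edgeR). The PDX3 call was lost without replicate 1 or 3 of Z100 or either replicate of XH7, and that of YPR127W without any 1 library at 30 °C (adjusted p up to 0.21 and 0.23). PDX3 was also not called with library size alone or with limma on FPKM (adjusted p up to 0.12). PDX3 rose with heat in XH7 (0.82 ± 0.22, adjusted p = 0.0085), but not without replicate 2 of XH7 at 30 °C (adjusted p = 0.083) or with library size alone. It had 0.33 ± 0.18 in Z100 (edgeR adjusted p = 0.13). YBL036C, a pyridoxal phosphate homeostasis protein by its family, had -0.66 ± 0.25 with heat in XH7 (adjusted p = 0.038, lost without replicate 3 of Z100 at either temperature, either XH7 library at 30 °C or replicate 1 of XH7 at 50 °C, up to 0.2, with RLE scaling and on the XH7 libraries alone, up to 0.058) and -0.23 ± 0.20 in Z100 (edgeR adjusted p = 0.34). Between strains at 50 °C edgeR called 0 of the 6, with 2 at an unadjusted p under 0.05 (TPN1 0.52 ± 0.17, adjusted p = 0.081, and YPR127W 1.11 ± 0.38, adjusted p = 0.1), both called by DESeq2. For the difference of heat responses edgeR called 0, with 1 at an unadjusted p under 0.05, TPN1 (-0.69 ± 0.23, adjusted p = 0.11), which was called by DESeq2 and without replicate 2 of XH7 at 50 °C.

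**Figure D5:**
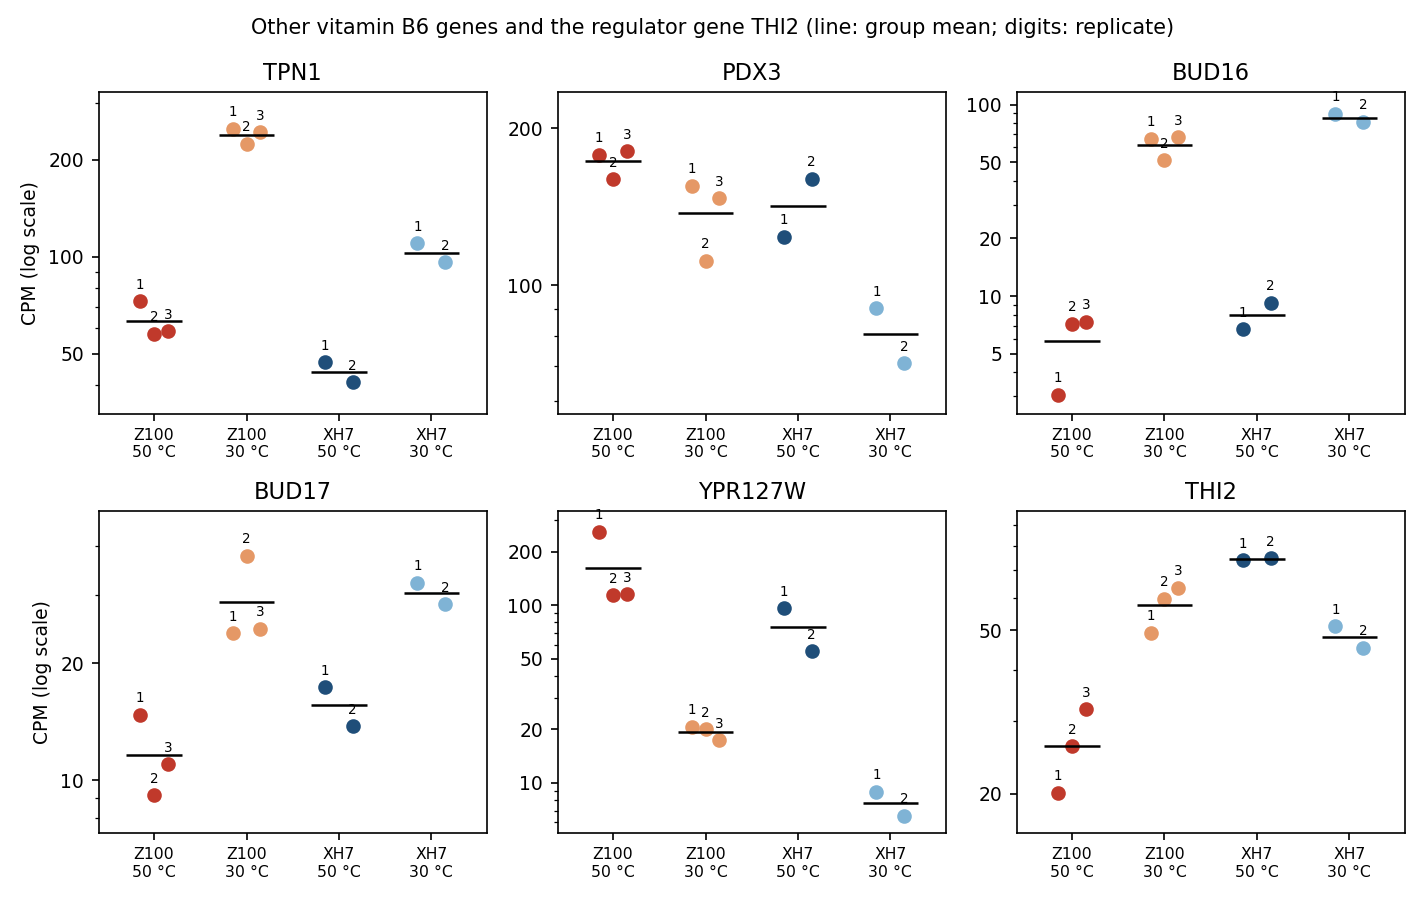
CPM (log scale) of 5 other vitamin B6 genes and of THI2, the gene of a thiamine regulator, in every library by group, with the replicate number above each point and a line at the group mean. TPN1 is highest in Z100 at 30 °C. THI2 is lowest in Z100 at 50 °C, at 20.1 to 32.1 CPM, and highest in XH7 at 50 °C.

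Substrates of the enzyme come from central metabolism. GLN1, glutamine synthetase, which makes the substrate of SNO, fell with heat in Z100 (-3.97 ± 0.62, edgeR adjusted p = 0.00022) and in XH7 (-3.0 ± 0.73, adjusted p = 0.0046). RKI1, which interconverts pentose phosphates, was lower in Z100 than in XH7 at 30 °C, at 1524 ± 207.4 and 2847 ± 277.8 CPM (-0.90 ± 0.21, adjusted p = 0.012), a call lost without either XH7 library at 30 °C (edgeR adjusted p up to 0.092). With heat it had 0.51 ± 0.19 in Z100 (adjusted p = 0.031, lost with upper-quartile scaling or library size alone, or without replicate 2 or 3 of Z100 at either temperature, up to 0.13) and -0.54 ± 0.23 in XH7 (edgeR adjusted p = 0.062). TPI1, triosephosphate isomerase, had -0.15 ± 0.19 in Z100 and -0.23 ± 0.23 in XH7 (edgeR adjusted p = 0.5 and 0.39).

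Of the genes of 4 known regulators, 4 fell with heat in Z100, where 36.2% of all genes were called lower. In XH7 3 were lower and 1 higher, where 32.0% and 31.3% of all genes were. GCN4, the activator of amino acid genes, fell with heat to 490.4 ± 10.1 CPM in Z100, against 1900 ± 364.8 CPM at 30 °C (-1.95 ± 0.21, edgeR adjusted p = 1.6e-05), and to 490.3 ± 120.4 CPM in XH7, against 2006 ± 144.2 CPM (-2.03 ± 0.26, adjusted p = 7.6e-05). Between strains it was at -0.08 ± 0.23 at 30 °C and 0.00 ± 0.23 at 50 °C (edgeR adjusted p = 0.81 and 1.0). Gcn4 is known to be set mainly by translation, which these data do not measure. THI3 and PDC2, which with THI2 are known to activate thiamine genes, fell in both strains (THI3 -2.10 ± 0.20 in Z100 and -2.09 ± 0.24 in XH7; PDC2 -0.85 ± 0.21 and -1.20 ± 0.26; edgeR adjusted p up to 0.0041). PDC2 was also lower in Z100 at 30 °C (-0.70 ± 0.23, adjusted p = 0.043), a call lost without any 1 of 6 libraries (each at 30 °C and replicate 3 of Z100 at 50 °C; edgeR adjusted p up to 0.24) and with RLE scaling, library size alone or limma on FPKM (adjusted p up to 0.11).

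THI2 was called in the strain comparison at 50 °C and in the difference of heat responses, as SNZ2 and SNZ3 were. The Gcn4 targets HIS4, ILV6 and ARG4 were called lower in both comparisons too, so these calls are not particular to THI2. THI2 had 20.1, 26.1 and 32.1 CPM in Z100 at 50 °C, 49.3, 59.7 and 63.3 CPM in Z100 at 30 °C, 73.9 and 74.8 CPM in XH7 at 50 °C, and 51.1 and 45.3 CPM in XH7 at 30 °C. It fell with heat in Z100 (-1.14 ± 0.19, edgeR adjusted p = 0.0003). In XH7 it was at 0.63 ± 0.22 (adjusted p = 0.032), a call lost with upper-quartile scaling, with library size alone, and without either XH7 library at 30 °C or replicate 1 of XH7 at 50 °C (adjusted p up to 0.16 for these). At 50 °C it was lower in Z100 (-1.51 ± 0.20, adjusted p = 0.0041), a call that held when any 1 library was left out (up to 0.017) and not on the libraries at 50 °C alone (0.077). The difference of heat responses was -1.76 ± 0.29 (adjusted p = 0.014), lost without replicate 3 of Z100 or either replicate of XH7 at 30 °C (edgeR adjusted p up to 0.13).

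The thiamine genes as a list, 19 in all, had 13 called lower and none higher in Z100 with heat, where 36.2% and 33.8% of all genes were. In XH7 they had 11 lower and 5 higher, where 32.0% and 31.3% of all genes were. The 5 became 2, 1 and 1 without replicate 1 of XH7 at 30 °C, replicate 2 at 30 °C and replicate 1 at 50 °C, and 1 with library size alone. Led by size, the falls in Z100 were those of THI80, thiamine pyrophosphokinase (-2.96 ± 0.37), the phosphatase gene PHO3 (-2.59 ± 0.32), the putative transporter gene THI73 (-2.46 ± 0.21) and the thiamine transporter gene THI7 (-2.11 ± 0.27, edgeR adjusted p up to 5.7e-05 for the 4). At 50 °C 6 were lower in Z100 than in XH7, where 4.94% of all genes were called lower. These 6 were led by PET18 (-1.60 ± 0.18, adjusted p = 0.0029) and THI73 (-1.57 ± 0.22, edgeR adjusted p = 0.0049), neither called on the libraries at 50 °C alone (adjusted p of 0.063 and 0.12). The 6 became 3 without replicate 1 or 2 of XH7 at 30 °C or replicate 3 of Z100 at 50 °C. THI11 is 1 of 4 near-identical genes, whose counts are less certain. For the difference of heat responses 2 thiamine genes were lower, THI2 and THI11 (-1.54 ± 0.35, edgeR adjusted p = 0.04), where 2.64% of all genes were. That count was 0 or 1 without any 1 of 8 libraries (all but replicate 1 of Z100 and replicate 2 of XH7 at 50 °C) and 4 without replicate 2 of XH7 at 50 °C. At 30 °C 14.1% of all genes were called lower in Z100 and 14.3% higher. Of the thiamine genes 5 were lower, led by PET18 (-1.73 ± 0.18) and THI73, and 1 higher, THI11 (0.95 ± 0.25, edgeR adjusted p = 0.022). The 5 became 2 or 3 without any 1 library at 30 °C, and THI11 was not called without replicate 2 or 3 of Z100 or either replicate of XH7 at 30 °C.

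Of 39 Gcn4 targets, 34 were called lower and 2 higher in Z100 with heat, and 30 lower and 4 higher in XH7 (2 higher without replicate 2 of XH7 at 30 °C or replicate 1 at 50 °C). Their medians were -2.65 and -1.73, where SNZ1, which is known as a Gcn4 target too, had -3.09 and -1.16. Of all genes 36.2% were called lower and 33.8% higher with heat in Z100, and 32.0% and 31.3% in XH7. At 30 °C 9 were higher in Z100 and none lower, led by ARG1 (1.36 ± 0.32, adjusted p = 0.014) and LEU4 (1.32 ± 0.24, edgeR adjusted p = 0.0047). That count was 0 without replicate 2 of XH7 at 30 °C, 17 without replicate 2 of XH7 at 50 °C, and 5 with library size alone. The difference of heat responses was lower for 8 and higher for none, led by ARG1 (-2.22 ± 0.44, adjusted p = 0.024) and ILV6 (-1.89 ± 0.35, edgeR adjusted p = 0.022). That count was 0 without either XH7 library at 30 °C, replicate 3 of Z100 at 30 °C or replicate 3 of Z100 at 50 °C, 2 without replicate 1 of Z100 at 30 °C and 5 without replicate 1 of XH7 at 50 °C. At 30 °C 14.3% of all genes were called higher in Z100 and 14.1% lower. For the difference of heat responses 2.64% of all genes were lower and 1.63% higher. Between the strains at 50 °C 3 targets were lower in Z100 and 1 higher, where 4.94% and 4.02% of all genes were. HIS4 (-1.49), ILV6 (-1.28) and ARG4 (-1.05) were lower (edgeR adjusted p = 0.0046, 0.016 and 0.032), and ILV2 (0.88, edgeR adjusted p = 0.021) was higher. None of these was called on the libraries at 50 °C alone. The 3 became 1 without replicate 3 of Z100 at 50 °C. The lists were written with earlier results of these data known, and their counts are no independent support for the members.

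The genes beside the pairs did not share 1 pattern with heat. Next to SNO1, the kinetochore gene CTF13 fell with heat in Z100 (-1.36 ± 0.29, edgeR adjusted p = 0.0019) and XH7 (-1.20 ± 0.35, adjusted p = 0.013, lost without replicate 2 of XH7 at either temperature, up to 0.082). Next to SNZ1, the mitochondrial GTPase gene MTG1 was at 0.68 ± 0.21 in Z100 (adjusted p = 0.015, lost with upper-quartile scaling, with library size alone or without replicate 2 or 3 of Z100 at 30 °C or replicate 3 at 50 °C, up to 0.06) and 0.42 ± 0.26 in XH7 (edgeR adjusted p = 0.18). Next to SNO2 and SNO3 lie YNL335W and YFL061W, near-identical genes described as cyanamide hydratase, and next to SNZ2 and SNZ3 the thiamine synthesis genes THI12 and THI5. THI12 and THI5 are near-identical too, as THI11 is, so the counts of each of these neighbours taken singly are less certain. With heat in Z100 YNL335W was at -0.54 ± 0.29, YFL061W at -0.65 ± 0.31, THI12 at 0.12 ± 0.37 and THI5 at -0.82 ± 0.24, of which only the last was called (edgeR adjusted p = 0.01). In XH7 they were at 0.10 ± 0.36, 0.30 ± 0.37, 1.05 ± 0.45 and 0.25 ± 0.29, none called by edgeR (THI12 was by DESeq2 and with RLE scaling). Their differences of heat responses were -0.63, -0.95, -0.93 and -1.07, none called (edgeR adjusted p = 0.42, 0.25, 0.34 and 0.12), beside -1.75 ± 0.28 for SNZ2 plus SNZ3. Between the strains at 50 °C they were at -0.51 ± 0.32, -0.85 ± 0.34, -0.85 ± 0.40 and -0.86 ± 0.26 in this order, none called (edgeR adjusted p = 0.34, 0.14, 0.21 and 0.069), beside -1.28 ± 0.20 for SNZ2 plus SNZ3 and -1.58 ± 0.31 for SNO2 plus SNO3. THI5 was called there by DESeq2, by limma on log2(FPKM + 0.1), with library size alone and without replicate 2 of XH7 at 50 °C (adjusted p down to 0.021).

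By Pearson r of log2 CPM over the 10 libraries, which are 2 or 3 libraries of each of 4 groups and not independent conditions, among the genes most like SNZ1 were ARG8 (0.983), an aminotransferase of arginine synthesis, SSU1 (0.971), a sulfite pump, ODC2 (0.968), a mitochondrial carrier, and PEX21 (0.963), a peroxin. SNO1, its partner, had 0.907 with SNZ1. Most like SNO1 were BRR6 (0.965), TIM18 (0.936), GPI1 (0.925), YJL206C (0.915) and PDR3 (0.911). The summed SNZ2 plus SNZ3 was most like SRL1 (0.989), YIP3 (0.989), ANT1 (0.987), ECM33 (0.984) and ERG3 (0.983), and had 0.909 with SNZ1 and 0.82 with summed SNO2 plus SNO3.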

How the data were processed

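Poly(A) RNA was made into libraries with the NEBNext Ultra RNA kit, per the labels' protocols, a kit known not to mark strand. The authors deposited raw counts per gene and FPKM values, which are scaled to gene length and library total. The aligner and the counter: not given in the sources used here. Gene positions in the tables lie on the sequences of R64, so sequences and annotation come from RefSeq R64. Genes were matched by position (6034 of 6059, 486 of them under another identifier). A further 3 empty lines were left out.

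Tests on the counts used edgeR 4.0.16 in R 4.3.3: TMM scaling, filterByExpr by group (6015 genes), 4 group means over 10 libraries, the quasi-likelihood F test and Benjamini-Hochberg adjustment over all genes. The standard error is the size of the log2 fold change over the square root of F. The biological coefficient of variation was 0.238. Log2 CPM for likeness had a prior count of 2. Ratios had exact two-sided permutation tests. The procedure was also run on simulated data in which few genes changed, as many up as down. Such data do not test the scaling where most genes are called, as with heat here.

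The members and lists were chosen with earlier results of these data known. All other vitamin B6 genes, regulators, substrate genes and neighbours were named, and of the other lists up to 4 called genes by size with at least 10 CPM in the higher group. Of these genes and those by likeness, 1 is not reported here.

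Alternatives were DESeq2 1.42.0, limma-voom and limma (3.58.1) on log2(FPKM + 1) and log2(FPKM + 0.1), other scalings and filters, a fit of the compared groups by themselves, a block for the replicate number, summed copies, and each library left out. The ratios, and the summed copies under the other alternatives, were added after seeing the data. A group left with 1 library borrows its spread from the rest.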

Additional observations from a re-analysis of the deposited data

Results flagged for a closer look

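The heat response differed between the strains by a test of the difference itself for SNZ2 (log2 difference of -1.57, Z100 minus XH7), for SNZ3 (-1.94) and for their summed counts, SNZ2 plus SNZ3 (-1.75). In Z100 SNZ2 plus SNZ3 stood at 3.21 ± 0.329 CPM at 50 °C and 18.7 ± 2.17 CPM at 30 °C, and in XH7 at 7.79 ± 1.24 CPM at 50 °C and 13.6 ± 1.18 CPM at 30 °C (SD, n = 3 for Z100 and n = 2 for XH7). The edgeR adjusted p-values were 0.037, 0.034 and 0.013. A block for the replicate number gave an edgeR adjusted p of 0.057 for SNZ2 and for SNZ3, and the summed call stayed. The single-copy calls were lost without any 1 of 8 libraries (SNZ2) and of 7 (SNZ3), and the summed call without either XH7 library at 30 °C.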

How the results depend on the processing

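Replicates number 2 in XH7 and 3 in Z100, so single libraries carry much weight. Shallow members (SNO2 at 7 counts in 1 library) are the least certain. With 5 CPM as filter SNO2 was not tested. Member counts were not formed with the copies summed, and the difference of heat responses has no fit of the compared groups alone.

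With the replicate block no member was called for the difference of heat responses (0 lower, against 2; SNZ2 and SNZ3 both at edgeR adjusted p = 0.057). The same difference for SNZ2 plus SNZ3 stayed called with the replicate block (edgeR adjusted p up to 0.036 over all alternatives but the left-out libraries), and the strain difference of SNO2 plus SNO3 at 30 °C did not (adjusted p = 0.068); SNZ2 at 50 °C had adjusted p = 0.081. The block changed no other call of a member or sum. It also ended the calls of YBL036C with heat in XH7 and of THI11 for the difference of heat responses (edgeR adjusted p up to 0.058 and 0.06). The labels do not pair the numbers: deviations of same-numbered libraries correlated at -0.122, -0.11 and 0.145 between temperatures in Z100, 0.121 in XH7, -0.107 and -0.145 between strains at 30 °C, and 0.635 and 0.529 at 50 °C, and not every Z100 library correlated best with its own number. On the compared groups alone 0 members were lower at 50 °C and 1 was higher at 30 °C (SNZ2, 0.61). With DESeq2 1 was higher at 30 °C (SNZ1, adjusted p = 0.05 as rounded), and with limma on log2(FPKM + 1) 5 fell with heat in XH7. SNO1 between strains changed sign at 30 °C, to -0.02 and -0.05 with limma on log2(FPKM + 1) and log2(FPKM + 0.1) and to -0.20 without replicate 1 of Z100 at 30 °C (range -0.20 to 0.62 over left-out libraries), and at 50 °C to 0.19 without replicate 1 of XH7 at 50 °C (range -1.24 to 0.19). The causes were not tested. Over the left-out libraries, members called lower numbered 5 to 6 with heat in Z100, 0 to 3 with heat in XH7, 1 to 3 between strains at 50 °C, 0 to 1 at 30 °C, where 0 to 1 were higher, and 0 to 3 for the difference of heat responses. By Spearman in place of Pearson correlation, 1 of the 5 genes most like SNZ1, 2 of those most like SNO1 and 0 of those most like SNZ2 plus SNZ3 were the same. Of the values with a library left out, 333 kept direction and side of the threshold, 58 lost and 7 gained a call; of those under the other alternatives 402 kept both, 16 lost and 17 gained one.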

Other observations

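Enzymes that use pyridoxal phosphate, the product of SNZ and SNO, were called in both directions with heat, more of them lower than higher. Of 38 listed, 22 were called lower and 7 higher in Z100, where 36.2% and 33.8% of all genes were. In XH7 18 were lower and 10 higher, where 32.0% and 31.3% of all genes were. Their medians were -1.03 in Z100 and -0.59 in XH7 (log2), against -0.05 and 0.01 over all genes. Glutamate decarboxylase GAD1 rose by 5.34 ± 0.41 in Z100 and 7.77 ± 0.56 in XH7, and glycogen phosphorylase GPH1 by 4.74 ± 0.29 and 6.85 ± 0.39, while threonine deaminase ILV1 was at -3.84 ± 0.29 and -3.41 ± 0.35 (edgeR adjusted p up to 2.2e-05). At 30 °C 13 were higher and 3 lower in Z100, where 14.3% and 14.1% of all genes were. The higher ones were led by GPH1 (2.99 ± 0.31, edgeR adjusted p = 0.00031) and GAD1 (2.94 ± 0.43, adjusted p = 0.0017). The 13 became 5 without replicate 2 of XH7 at 30 °C. The 3 became 0 or 1 without either XH7 library or replicate 3 of Z100 at 30 °C, and 6 without replicate 1 of XH7 at 50 °C. At 50 °C 3 were lower, and 0 or 1 when any 1 library was left out. Of all genes 4.94% were called lower at 50 °C. For the difference of heat responses 6 of the enzymes were lower, where 2.64% of all genes were. That count was 0 without either XH7 library at 30 °C or replicate 3 of Z100 at either temperature, 3 without replicate 1 of Z100 at 30 °C and 16 without replicate 2 of XH7 at 50 °C.

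Of 12 genes listed for their rise in stationary phase, the state for which SNZ1 and SNO1 are best known, 11 were called higher with heat in Z100 and 12 in XH7. Of all genes 33.8% and 31.3% were. Medians were 4.94 and 5.14 for the list and -2.2 and -0.94 for the SNZ and SNO genes. HSP26, a small heat shock protein, and HSP12, a membrane-associated stress protein, led in both strains. The list holds such heat and stress genes, so its rise with heat does not show a stationary-phase state, which was not tested. At 30 °C 6 were higher in Z100, led by CTT1, catalase (3.22 ± 0.28, edgeR adjusted p = 0.00014), with 1 left without either XH7 library at 30 °C and 3 without replicate 1 or 3 of Z100 at 30 °C. At 50 °C 2 were higher in Z100, HSP12 (2.67 ± 0.46, edgeR adjusted p = 0.012) and CTT1 (1.87 ± 0.26, adjusted p = 0.0047), neither called on the libraries at 50 °C alone (edgeR adjusted p of 0.063 and 0.077). Of all genes 14.3% were called higher in Z100 at 30 °C and 4.02% at 50 °C.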
